A study of Homo sapiens with 14 samples.

Results

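The genes described here encode the centromere, the kinetochore and the machinery of the spindle checkpoint. They are 52 genes chosen by symbol, and 51 of them had a value among the 19775 genes measured by a probe set that names 1 gene only. The remaining gene, CENPP, appeared only on a probe set that names several genes and was not measured. CENPJ carries a CENP name but belongs to the centriole. It was found under its current symbol CPAP and was kept as a group of its own.

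The arrays came from Hep3BTAp73β cells, a line picked from resistant colonies of the hepatocellular carcinoma line Hep3B. The line holds a TAp73β construct behind a promoter that doxycycline opens, together with the tet repressor that keeps it closed. TAp73β is a transactivating isoform of the transcription factor p73. Cells given doxycycline at 1 µg/mL (Dox+) were compared with cells of the same line left without it (Dox−) at 12 h and 24 h, with 2 arrays per group, and at 48 h, with 3 arrays per group. Both arms therefore carried the construct and the repressor. The arrays of 1 group are labelled biological replicates. No arrays of doxycycline-treated cells without the construct were analysed, so the effect of the drug itself and that of TAp73β cannot be told apart.

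The kinetochore is the protein structure that holds a chromosome to the spindle microtubules in mitosis. Its inner layer rests on nucleosomes that hold CENP-A in place of ordinary histone H3, and its outer layer binds microtubules through the NDC80 complex. Kinetochores without attachment recruit BUB and MAD proteins, which hold back the anaphase-promoting complex until every chromosome is attached. Most of these transcripts are made late in the cell cycle, and genes of this kind are commonly high in proliferating hepatocellular carcinoma.

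TP73 itself checked the labels. Its log2 value lay between 5.82 and 6.08 on the 7 Dox− arrays and between 7.89 and 8.30 on the 7 Dox+ arrays. After 12 h of doxycycline it was 3.70-fold higher (adjusted p = 0.00271). The ratio was 4.83-fold after 24 h, with an adjusted p of 1.03e-04, and 3.89-fold after 48 h, with an adjusted p of 1.06e-07. Of the 9 hepatocyte markers, ALB had a median log2 value of 14.4 and AFP of 9.31 over the 14 arrays, where the median gene mean was 6.49. Of the 4 measured leukocyte markers PTPRC was at 3.64, CD3E at 6.04, CD79A at 6.10 and CD14 at 6.51. Of the 4 endothelial markers KDR and CDH5 were both at 3.73, VWF at 4.98 and PECAM1 at 6.58. Among the 6 fibroblast markers COL3A1 was at 4.07, while LUM was at 9.18 and COL1A1 at 7.56. The mean of the fibroblast list lay between 6.14 and 6.48 on the Dox− arrays and between 6.19 and 6.47 on the Dox+ arrays. Replicate arrays correlated between 0.993 and 0.999 over all genes.

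Transcripts of the centromere, kinetochore and checkpoint were lower in Dox+ from 24 h on. At 48 h, 38 of the 51 measured genes were lower past the test and 1, MAD1L1, was higher. Over all genes 12.9% were lower and 11.3% higher at that time. At 24 h 20 were lower and none was higher, where 2.81% of all genes were lower and 3.01% higher. An unadjusted p under 0.05 was held by 37 of the 51 at that time, against 20.2% of all genes. At 12 h none passed in either direction, where 0.0202% of all genes were lower and 0.647% higher, and 3 of the 51 had an unadjusted p under 0.05, against 13.7% of all genes. The test was limma's, adjusted over all 19775 genes, with a threshold of 0.05 on the adjusted p. All 20 genes that were lower at 24 h were lower at 48 h as well, where they made up 52.6% of the list. The 2 comparisons used different arrays. The 24 h count rested on few arrays: it was 6 without the first Dox− replicate and 10 without the first Dox+ replicate, and an ordinary equal-variance test per gene called none at 24 h and 25 at 48 h.

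The changes were moderate in size. The median log2 fold change of the 51 genes was −0.04 at 12 h, beside −0.04 over all genes. It was −0.50 at 24 h, beside 0.02, and −0.55 at 48 h, beside −0.02. The change was below 0 for 28 of 51 genes at 12 h, against 57.1% of all genes. That number was 46 after 24 h, against 45.7%, and 47 after 48 h, against 54.6%. A fall of at least 2-fold was reached by 2 genes at 24 h, AURKB and HJURP, and by none at 48 h. The typical SD between replicates of 1 gene was 0.137 on the log2 scale at 12 h, and 0.112 and 0.0978 at the later times. Every Dox+ array lay below every Dox− array for 12 of 51 genes at 12 h, a pattern that 27.6% of all genes showed. The number was 41 of 51 at 24 h against 23.7% of all genes, and 45 of 51 at 48 h against 21.9%. In RNA from whole cultures, fewer cells in mitosis and less of these transcripts per cell cannot be told apart.

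**Figure D1:**
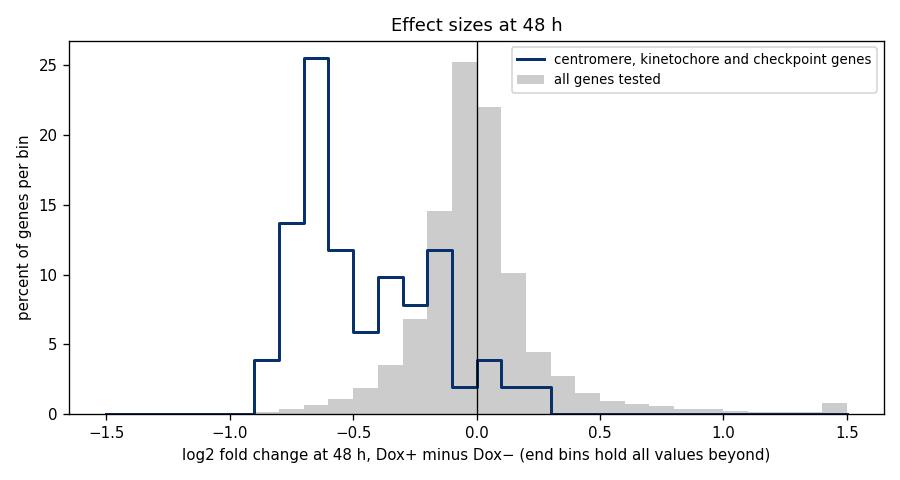
Distribution of the log2 fold change at 48 h (horizontal axis, Dox+ minus Dox−, bins of 0.1) as the percent of genes per bin (vertical axis), for all 19775 genes (grey bars) and for the 51 centromere, kinetochore and checkpoint genes (blue line). The median of the 51 genes is −0.55 and that of all genes −0.02.

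The median level of the 51 genes on single arrays showed when the arms parted. At 12 h it was 9.41 and 9.07 on the Dox− arrays and 9.46 and 9.36 on the Dox+ arrays, so the arms overlapped. At 24 h it was 9.54 and 9.38 in Dox− and 8.91 and 9.04 in Dox+. At 48 h it was 9.54, 9.61 and 9.48 in Dox− and 9.07, 9.10 and 8.88 in Dox+. The arms were apart at both later times. The third Dox+ replicate at 48 h was the lowest of its group for 39 of the 51 genes. Without it 35 genes were lower in place of 38.

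**Figure D2:**
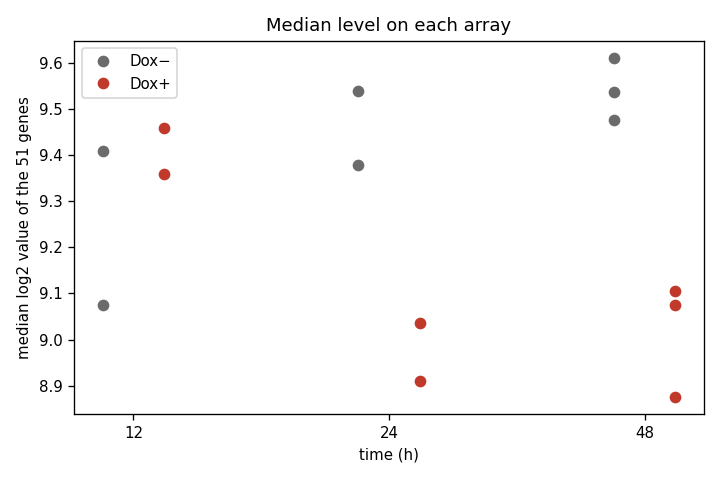
Median log2 value of the 51 genes on each of the 14 arrays (vertical axis) by time in hours (horizontal axis). Grey points are Dox− arrays and red points Dox+ arrays. The arms overlap at 12 h and are apart at 24 h, where Dox− lies at 9.38 and above and Dox+ at 9.04 and below, and at 48 h.

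The group means moved in opposite directions in the 2 arms. In Dox− cells 42 of the 51 genes had a higher mean at 48 h than at 12 h, with a median change of 0.16 on the log2 scale. That rise depends on the 12 h Dox− means, which rest on 2 arrays with medians of 9.41 and 9.07. The second of these arrays was the lower for 35 of the 51 genes. In Dox+ cells 41 of the 51 had a lower mean at 48 h than at 12 h, with a median change of −0.32. The median over all genes was −0.06 in Dox− and −0.04 in Dox+. The fall in Dox+ lay mostly between 12 h and 24 h, with a median of −0.27. These changes over time are given as a description and were not tested.

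**Figure D3:**
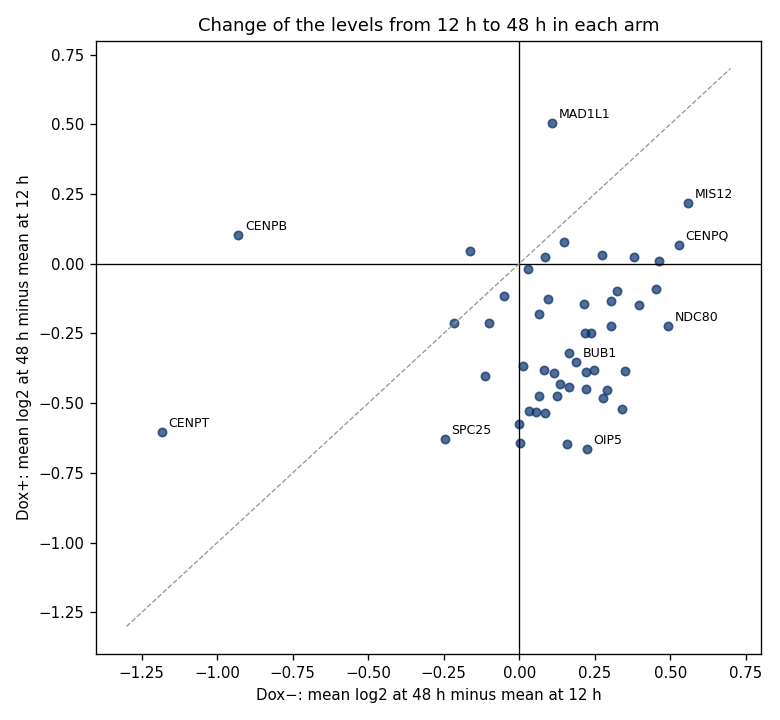
Change of each of the 51 genes' mean log2 level from 12 h to 48 h in Dox− cells (horizontal axis) and in Dox+ cells (vertical axis). Each point is 1 gene and the dashed line marks equal change. Most points lie right of 0 and below 0, that is, higher in 42 genes without doxycycline and lower in 41 with it. MAD1L1 rises most with it, by 0.50, and CENPB and CENPT lie apart on the left.

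Promoter sequence was examined because these genes moved together. Genes of the G2 and M phases are known to share 2 promoter elements, the cell cycle homology region (CHR) and the CCAAT box, through which the DREAM and MMB complexes and NF-Y act. RefSeq windows on GRCh38.p14, from 250 bases before to 50 after each start, were matched for 43 of the 52 genes as 50 windows, since 6 genes had several. The CHR letters TTTGAA, read on both strands, were in 19 of the 50 windows, or 38.0%, against 15.2% of all 35116 windows. The letters CCAAT were in 60.0% against 34.6%. The GC box GGGCGG was in 68.0% against 45.0%, the CHR variant TTTAAA in 10.0% against 12.2%, and an E2F site (TTTGGCGC or TTTCGCGC) in 4.0% against 1.15%. The E2F and GC box letters can overlap each other. A match is a run of letters and not an occupied site, and none of these shares was tested.

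The median change at 48 h was −0.60 for the 18 measured genes with a CHR match in a window, of which 14 were lower past the test. It was −0.43 for the 24 genes without one, of which 17 were lower. With a CCAAT match it was −0.58, with 21 of 25 genes lower, and without one −0.39, with 10 of 17 lower. With a CHR and a CCAAT match in 1 window it was −0.55, with 9 of 11 lower. For the other 31 genes it was −0.55 too, with 22 lower. With a GC box match it was −0.54, with 21 of 30 lower, and without one −0.58, with 10 of 12 lower. None of these differences was tested. Windows from 220 bases before to 30 after the start are printed for 6 genes, 5 that were lower and the single gene that was higher at 48 h. They are written 5′ to 3′ on the gene's strand, with matches to the CHR, the CCAAT box and the E2F sites in capitals, on either strand, so that ATTGG is a CCAAT box and TTCAAA a CHR on the opposite strand.
CENPA, chr2:26785836-26786085, plus strand: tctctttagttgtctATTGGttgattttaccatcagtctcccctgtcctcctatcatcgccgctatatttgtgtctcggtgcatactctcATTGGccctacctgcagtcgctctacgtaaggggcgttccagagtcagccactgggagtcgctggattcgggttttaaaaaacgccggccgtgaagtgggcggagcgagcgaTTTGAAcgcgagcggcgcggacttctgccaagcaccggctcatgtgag
HJURP, chr2:233854506-233854755, minus strand: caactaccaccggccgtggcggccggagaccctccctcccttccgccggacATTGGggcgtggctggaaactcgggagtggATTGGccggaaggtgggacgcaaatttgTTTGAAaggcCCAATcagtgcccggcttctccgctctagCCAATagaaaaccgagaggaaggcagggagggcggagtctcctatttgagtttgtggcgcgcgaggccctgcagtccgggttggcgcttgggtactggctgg
BUB1B, chr15:40160849-40161098, plus strand: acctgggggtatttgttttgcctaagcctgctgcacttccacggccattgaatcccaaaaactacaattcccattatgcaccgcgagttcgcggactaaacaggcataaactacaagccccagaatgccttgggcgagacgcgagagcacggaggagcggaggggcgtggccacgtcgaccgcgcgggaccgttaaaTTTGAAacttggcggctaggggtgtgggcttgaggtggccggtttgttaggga
NDC80, chr18:2571337-2571586, plus strand: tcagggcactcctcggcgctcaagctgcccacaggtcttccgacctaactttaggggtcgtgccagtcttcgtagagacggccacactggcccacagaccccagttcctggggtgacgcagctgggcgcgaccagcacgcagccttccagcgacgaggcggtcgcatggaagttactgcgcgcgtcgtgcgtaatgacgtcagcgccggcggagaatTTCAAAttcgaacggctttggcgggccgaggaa
BUB1, chr2:110678034-110678283, minus strand: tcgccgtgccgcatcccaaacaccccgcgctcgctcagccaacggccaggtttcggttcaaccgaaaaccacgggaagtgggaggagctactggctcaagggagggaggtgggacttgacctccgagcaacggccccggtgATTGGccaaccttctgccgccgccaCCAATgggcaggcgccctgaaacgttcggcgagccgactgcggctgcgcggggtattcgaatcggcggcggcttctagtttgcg
MAD1L1, chr7:2232916-2233165, minus strand: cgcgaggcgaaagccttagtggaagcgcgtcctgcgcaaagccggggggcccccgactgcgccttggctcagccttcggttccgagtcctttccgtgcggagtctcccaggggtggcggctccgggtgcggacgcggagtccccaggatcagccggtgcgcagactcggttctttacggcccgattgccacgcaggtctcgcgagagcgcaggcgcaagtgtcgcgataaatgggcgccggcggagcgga
The CHR match of CENPA begins 18 bases before the start, that of BUB1B 23 bases before and that of NDC80, on the opposite strand, 3 bases before, so all 3 lie close to it. HJURP holds its CHR match 111 bases upstream, between 4 CCAAT matches. BUB1, with the most negative change at 48 h, has 2 CCAAT matches and no CHR match. The MAD1L1 window holds none of the letters searched for, which says only that they are not in this window. The printed windows are examples, and those of AURKB, OIP5 and SKA2 are not printed. AURKB and OIP5 were lower at 48 h without a CHR match. SKA2 had CCAAT matches and did not pass at 48 h (0.08).

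The spindle checkpoint held the gene with the most negative change at 48 h and the single gene that was higher. Of its 7 genes 4 were lower and 1 was higher at 48 h, and 3 were lower at 24 h. BUB1 is the kinase that recruits other checkpoint proteins to the kinetochore. At 48 h its log2 value was 10.36, 10.46 and 10.37 in Dox− and 9.63, 9.66 and 9.33 in Dox+. At 24 h it was 10.46 and 10.32 in Dox− and 9.49 and 9.45 in Dox+. The groups did not overlap at either time, and the log2 fold change at 24 h was −0.92 (SE 0.13, adjusted p = 0.00478). That at 48 h was −0.86 (SE 0.09, adjusted p = 1.55e-04).

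TTK, also called MPS1, is the kinase that starts checkpoint signalling. Its values at 48 h were 10.42, 10.60 and 10.50 in Dox− and 9.80, 9.85 and 9.47 in Dox+. All 3 Dox+ arrays lay below the Dox− arrays, with a log2 fold change of −0.80 (SE 0.10, adjusted p = 4.98e-04). BUB1B encodes BUBR1, a part of the inhibitor of the anaphase-promoting complex, and its CHR-bearing promoter window is printed above. It stood at 11.41, 11.35 and 11.28 in Dox− and at 10.71, 10.76 and 10.55 in Dox+ at 48 h. The groups were apart, by −0.67 (SE 0.07, adjusted p = 1.89e-04). MAD2L1 encodes MAD2, the protein that changes shape to bind CDC20. At 48 h it had 11.14, 11.45 and 11.15 in Dox− and 10.74, 10.76 and 10.41 in Dox+, a difference of −0.62 (SE 0.11, adjusted p = 0.0039). At 24 h its difference was −0.43 and did not pass (adjusted p = 0.0921).

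MAD1L1 encodes MAD1, the partner that holds MAD2 at the kinetochore. At 48 h it was measured at 7.45, 7.63 and 7.56 in Dox− and at 7.83, 7.69 and 7.83 in Dox+. The Dox+ arrays lay above the Dox− arrays, by 0.23 (SE 0.07, adjusted p = 0.0433). This call was lost in 9 of 15 other settings, among them each fit without replicate 1 or replicate 3 of either arm. BUB3, the shared partner of BUB1 and BUBR1, had −0.12 (SE 0.07) at 48 h on the probe set used and did not pass. MAD2L1BP, which encodes the MAD2-binding protein p31comet that helps to silence the checkpoint, had −0.09 (SE 0.06) and did not pass.

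**Figure D4:**
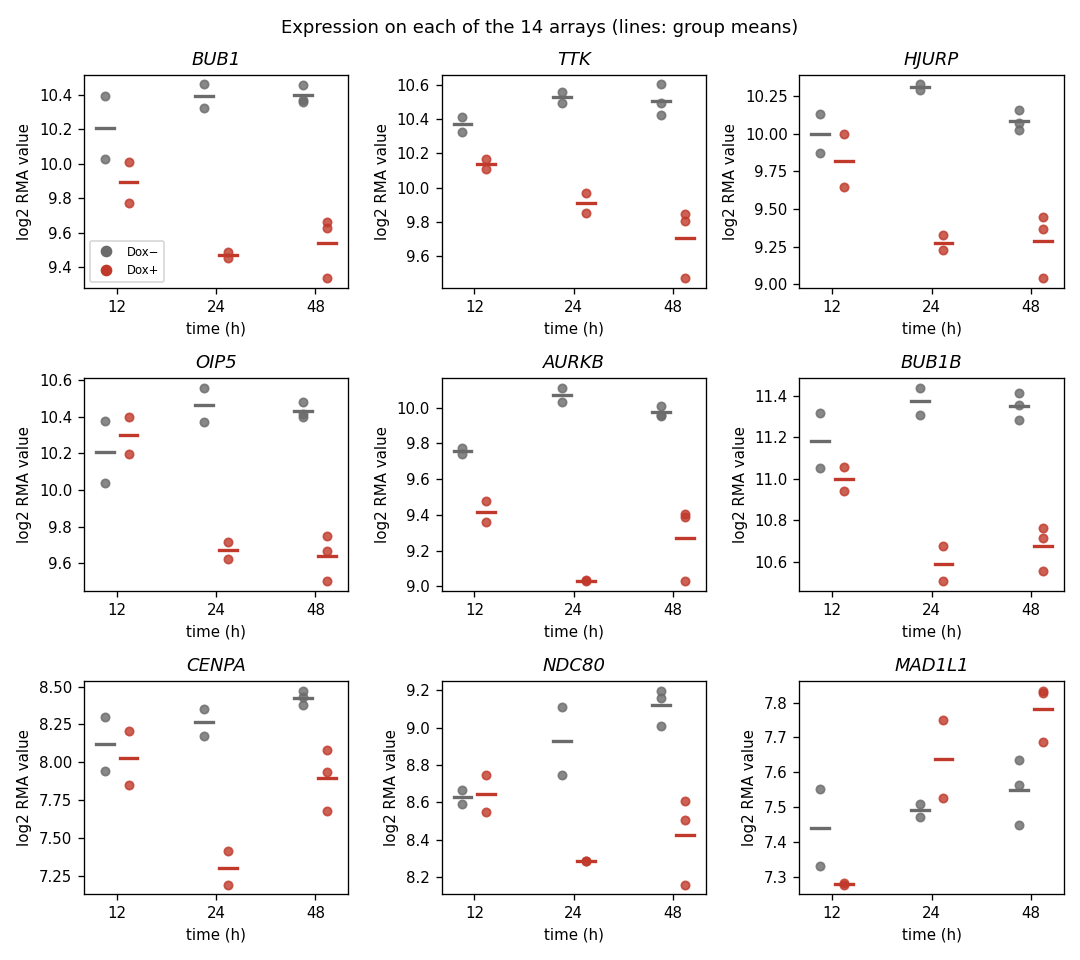
Log2 RMA value (vertical axes, with a range of their own in each panel) of 9 genes on each of the 14 arrays by time in hours (horizontal axes). Grey points are Dox− and red points Dox+ arrays, and short lines are group means. In the 8 genes other than MAD1L1 the arms are apart at 24 h and 48 h, Dox+ below Dox−, and for MAD1L1 Dox+ lies above Dox− at 24 h and 48 h.

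The loading of CENP-A showed the same direction in all of its genes at 24 h and 48 h. At 48 h 3 of 3 were lower, and 2 of 3 at 24 h. HJURP is the chaperone that delivers new CENP-A to centromeres. It was at 10.33 and 10.29 in Dox− and at 9.33 and 9.23 in Dox+ at 24 h, a difference of −1.03 (SE 0.13, adjusted p = 0.0026). At 48 h it was at 10.03, 10.16 and 10.07 in Dox− and at 9.37, 9.45 and 9.04 in Dox+, a difference of −0.80 (SE 0.10, adjusted p = 5.06e-04). The groups were well apart at both times.

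OIP5, or MIS18β, forms the complex that marks centromeres for HJURP together with MIS18A. It was at 10.42, 10.48 and 10.40 in Dox− and at 9.75, 9.66 and 9.50 in Dox+ at 48 h, a difference of −0.80 (SE 0.07, adjusted p = 7.36e-05). At 24 h the difference was −0.80 as well (adjusted p = 0.0118). At 12 h the values were 10.38 and 10.04 in Dox− and 10.40 and 10.20 in Dox+, which overlap. OIP5 was the single gene among the 51 that passed limma's contrast for a more negative effect at 48 h than at 12 h both with and without array weights. Its difference was −0.89 (SE 0.17, adjusted p = 0.0105, and 0.0348 with weights). CENPW (−0.80, adjusted p = 0.0110, and 0.0513 with weights) and SGO1 (−0.86, adjusted p = 0.0146, and 0.0892 with weights) had similar differences and passed only without weights. Over all genes 0.440% passed both fits in that direction. Without the weights 10 of the 51 genes passed, against 1.64% of all genes. That number was between 3 and 17 with 1 array left out, fewest without the second Dox+ replicate at 12 h or the last Dox− replicate at 48 h and most without the first Dox− replicate at 12 h. Against 24 h none of the 51 passed for a more negative effect at 48 h, where 0.157% of all genes passed both fits. MIS18A had −0.56 (adjusted p = 0.00238) at 48 h.

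The chromatin and inner layer of the kinetochore gave 12 lower genes of 15 measured at 48 h and 4 at 24 h. CENPA, the histone variant itself, stood at 8.18 and 8.35 in Dox− and at 7.19 and 7.41 in Dox+ at 24 h. After 48 h CENPA read 8.38, 8.43 and 8.47 in Dox− and 7.93, 8.08 and 7.68 in Dox+. Dox+ lay below Dox− on every array at both times, by −0.96 (SE 0.14, adjusted p = 0.00633) and by −0.53 (SE 0.10, adjusted p = 0.00353). The difference between these 2 effects, 0.43, did not pass a test (adjusted p = 0.411).

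CENPH, like most genes of this layer, encodes a part of the constitutive network that joins CENP-A to the outer kinetochore. CENPH was at 8.20 and 8.19 in Dox− and at 7.36 and 7.31 in Dox+ at 24 h, a difference of −0.86 (SE 0.13, adjusted p = 0.00593). The 48 h values were 8.15, 8.60 and 8.15 in Dox− and 7.73, 7.81 and 7.23 in Dox+, with a wider spread and a difference of −0.71 (SE 0.17, adjusted p = 0.0127). CENPQ, of the CENP-O group of proteins, was at 8.38 and 8.05 in Dox− and at 7.20 and 7.47 in Dox+ at 24 h, a difference of −0.88 (SE 0.16, adjusted p = 0.0161). The 24 h groups of both genes were apart.

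CENPN recognises the CENP-A nucleosome, and CENPW folds like a histone with CENPT. At 48 h CENPN was at 9.91, 9.87 and 9.97 in Dox− and at 9.22, 9.36 and 9.10 in Dox+, a difference of −0.69 (SE 0.07, adjusted p = 1.9e-04). CENPW was at 11.59, 11.50 and 11.53 in Dox− and at 10.91, 10.97 and 10.72 in Dox+, a difference of −0.67 (SE 0.08, adjusted p = 2.33e-04). On the probe sets used neither passed at 24 h, with differences of −0.53 and −0.35. Another probe set of CENPN had −0.82 at 24 h and passed in limma's fit of all probe sets (adjusted p = 0.0172). The rest of that gene's probe sets did not pass at 24 h. The other lower genes at 48 h were CENPO, CENPM, CENPU, ITGB3BP, CENPC, CENPI and CENPK besides CENPQ, from −0.64 for CENPO to −0.31 for CENPK.

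The 3 genes of this layer that did not pass at 48 h on the probe set used were CENPL (−0.23, SE 0.11), CENPB (0.05, SE 0.07) and CENPT (0.12, SE 0.06). CENPB, which binds a short motif in centromeric satellite DNA, had the most negative value of the 51 genes at 12 h. It was at 7.14 and 7.11 in Dox− and at 6.39 and 5.90 in Dox+, a difference of −0.98 (SE 0.19) that did not pass (adjusted p = 0.0879). By 48 h its Dox− level was lower by −0.93 than at 12 h, and the arms overlapped. CENPT had 7.84 and 6.35 on its 2 Dox+ arrays at 12 h, the widest gap between replicates among the values given here.

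The outer kinetochore joins the MIS12 complex, KNL1 with ZWINT, and the NDC80 complex, which holds the microtubule. Of its 10 genes 7 were lower at 48 h and 2 at 24 h. All 4 genes of the NDC80 complex were lower at 48 h, with a median of −0.66, and 1 of the 4 genes of the MIS12 complex, with a median of −0.14. This division into complexes was made after the values were seen, and the difference between them was not tested.

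NUF2 was at 9.95, 10.07 and 9.93 in Dox− and at 9.41, 9.39 and 8.92 in Dox+ at 48 h, a difference of −0.74 (SE 0.12, adjusted p = 0.00211). NDC80, its direct partner, was at 9.01, 9.20 and 9.16 in Dox− and at 8.51, 8.61 and 8.16 in Dox+, a difference of −0.70 (SE 0.11, adjusted p = 0.00172). In both genes the third Dox+ replicate was the lowest and no arrays overlapped. SPC25 had −0.62 and SPC24 −0.34 at 48 h (adjusted p = 0.00254 and 0.00282).

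KNL1 is the scaffold on which BUB1 and BUBR1 dock. It was at 9.62, 9.46 and 9.45 in Dox− and at 8.92, 9.003 and 8.78 in Dox+ at 48 h, a difference of −0.61 (SE 0.08, adjusted p = 5.22e-04). ZWINT, its partner, had −0.21 (adjusted p = 0.0318), a call that was lost in 10 of 15 other settings. PMF1 had −0.46 (adjusted p = 3.74e-04), whereas its MIS12 complex partners MIS12 (−0.16, SE 0.06), DSN1 (−0.12, SE 0.07) and NSL1 (−0.11, SE 0.06) did not pass.

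The SKA complex steadies the grip on microtubules, and 1 of its 3 genes was lower at each of 24 h and 48 h. SKA3 was at 8.26, 8.64 and 8.33 in Dox− and at 7.75, 7.75 and 7.42 in Dox+ at 48 h, a difference of −0.77 (SE 0.12, adjusted p = 0.00161). SKA2 was at 11.64, 11.69 and 11.73 in Dox− and at 11.76, 11.74 and 11.79 in Dox+, a difference of 0.08 (SE 0.06) that did not pass. SKA1 had −0.54 at 24 h and −0.20 at 48 h, and passed at neither time (adjusted p = 0.0529 and 0.0717). The value of SKA2 above 0 is that of the probe set used. Its other probe set had −0.08 at 48 h and did not pass.

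The corona, the outermost layer, and the RZZ complex that brings dynein and MAD1 to it gave 4 lower genes of 5 at 48 h and 3 at 24 h. ZWILCH had −0.63 (SE 0.07, adjusted p = 2.6e-04) at 48 h. CENPF, a large microtubule-binding protein, and CENPE, the kinesin that carries chromosomes to the spindle equator, both had −0.55 (adjusted p = 0.00183 and 0.00684). KNTC1 had −0.19 (adjusted p = 0.0299), lost in 9 of 15 other settings, and ZW10, with the smallest change, had −0.17 (SE 0.06) and did not pass.

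The chromosomal passenger complex corrects wrong attachments, and 3 of its 4 genes were lower at 48 h and 2 at 24 h. AURKB, its kinase, had the most negative value of the 51 genes at 24 h, at 10.03 and 10.11 in Dox− and at 9.03 and 9.04 in Dox+. The difference was −1.04 (SE 0.13, adjusted p = 0.00243). Its 48 h values were 9.95, 9.96 and 10.01 in Dox− and 9.39, 9.40 and 9.03 in Dox+, a difference of −0.70 (SE 0.10, adjusted p = 8.29e-04). BIRC5, or survivin, had −0.66 and CDCA8, or borealin, −0.58 at 48 h (adjusted p = 9.65e-04 and 0.00263). The scaffold INCENP had −0.53 at 24 h and −0.21 at 48 h, and passed at neither time (adjusted p = 0.0601 and 0.165).

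The guards of cohesion at the centromere were lower in 3 of 3 genes at 48 h and 2 of 3 at 24 h. CDCA5, or sororin, which keeps cohesin on chromatin, was at 10.03, 9.93 and 9.95 in Dox− and at 9.36, 9.35 and 9.09 in Dox+ at 48 h, a difference of −0.70 (SE 0.08, adjusted p = 2.81e-04). The shugoshins SGO2 and SGO1 had −0.66 and −0.61 (adjusted p = 0.00162 and 0.00246). CENPJ, the centriole gene, was at 7.64, 7.69 and 7.77 in Dox− and at 7.10, 7.20 and 7.03 in Dox+, a difference of −0.59 (SE 0.07, adjusted p = 2.73e-04). Its groups were apart, as were those of CDCA5.

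**Figure D5:**
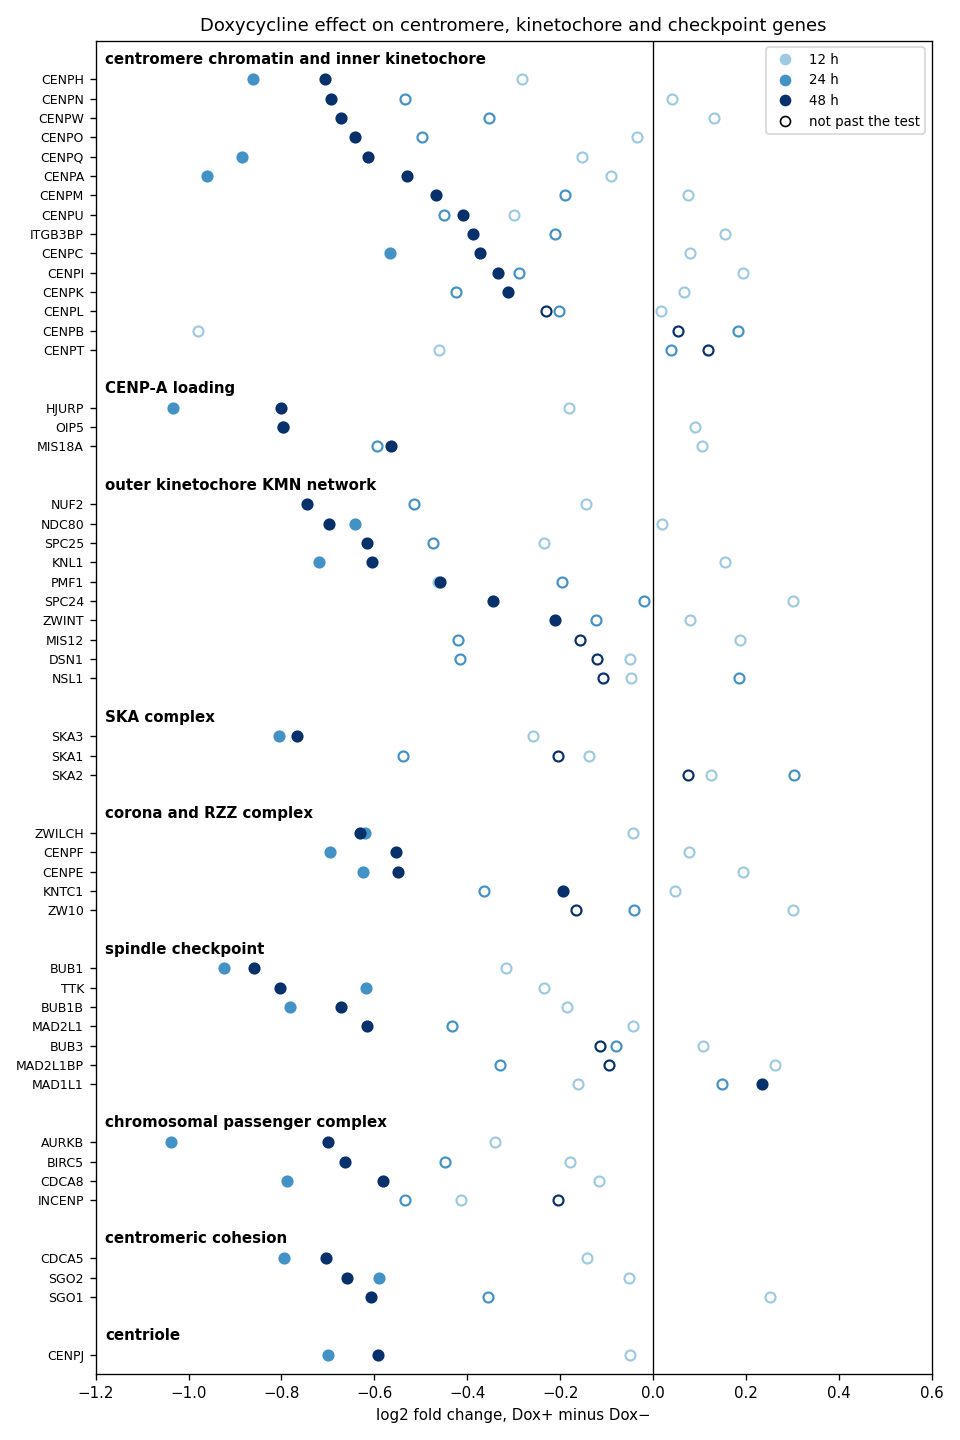
Log2 fold change, Dox+ minus Dox− (horizontal axis), of the 51 genes (rows, grouped by role and ordered by the value at 48 h) at the 3 times (light to dark blue, from 12 h to 48 h). Filled points passed limma's test at an adjusted p under 0.05, which holds for 0, 20 and 39 genes at the 3 times. Points at 24 h and 48 h lie left of 0 for most genes, and those of CENPB, CENPT, SKA2 and MAD1L1 at 48 h lie right of it.

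Several genes were read by more than 1 probe set. The 51 genes had 94 probe sets, 21 genes had several, and the values above are those of the brightest. Of the 43 other probe sets 16 were lower and 1 higher at 24 h, and 20 were lower and 0 higher at 48 h, in a fit of all 41091 probe sets that name 1 gene. The shares of all probe sets called in that fit were not counted, so no background stands beside these counts. At 24 h the used probe set of MAD2L1 had −0.43 (adjusted p = 0.113), while its other 2 had −1.47 and −0.82 and passed. BUB3 had −0.08 on the used probe set at 24 h and −1.04, −0.56 and −0.60 on 3 others, all past the test, while its remaining 2 did not pass. At 48 h 1 of the BUB3 probe sets passed, with −0.26 (adjusted p = 0.0239). CENPL had −0.20 and −1.12 on its 2 probe sets at 24 h, and the second passed. That second probe set also passed at 48 h, with −0.56 (adjusted p = 0.00201), while the used one did not. BIRC5 was the gene whose probe sets passed in opposite directions. At 24 h 1 of them had 0.80 (adjusted p = 0.0328) and another −0.94 (adjusted p = 0.00798), whereas all 4 were lower past the test at 48 h. Some genes called lower at 48 h had other probe sets that did not pass. Both others of CENPJ had −0.16 (adjusted p = 0.342 and 0.219), at mean log2 values of 5.57 and 3.97. The other probe set of AURKB had −0.21 (adjusted p = 0.110), at a mean of 5.35. What these probe sets detect was not tested.

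Some genes that work beside the kinetochore were lower at 48 h as well. Of all genes 12.9% were lower and 11.3% higher at that time. Of 19 measured genes of the anaphase-promoting complex, its cofactors and separase, 7 were lower and 1 was higher at 48 h. CDC20, the activator that the checkpoint inhibits, had −0.71 (adjusted p = 4.19e-04), UBE2C −0.52 and separase, ESPL1, −0.48. The subunit ANAPC4 had 0.69 (adjusted p = 4.78e-05). Of 12 cohesin and cohesin loader genes 3 were lower and none was higher, namely PDS5A with −0.24, WAPL with −0.22 and PDS5B with −0.21. The median of these 12 genes was −0.16. ESCO2, an acetyltransferase of cohesin, had the most negative value of that list, −0.61 (SE 0.23), and did not pass (adjusted p = 0.0955). Of 14 other measured kinetochore and checkpoint genes 9 were lower and 2 higher. Among them TRIP13, an ATPase that remodels MAD2, had −0.86, PLK1 −0.77 and HASPIN −0.65, while NDE1, a dynein regulator, had 1.09 (adjusted p = 6.91e-06).

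The regulators that are known to control late cell cycle genes gave 5 lower and 3 higher genes of 14 at 48 h. The shares over all genes were 12.9% lower and 11.3% higher. CDKN1A, the p21 inhibitor of cyclin-dependent kinases, had 2.77 (adjusted p = 3.84e-08). MYBL2 and FOXM1, both activators of G2 and M genes, had −0.70 and −0.63 (adjusted p = 2.11e-04 and 5.88e-04), and RB1 had 0.55 (adjusted p = 0.0201). Of 15 other G2 and M transcripts 12 were lower and 1 higher, with a median of −0.48, led by CDKN3 (−0.76), ASPM (−0.73), CCNA2 (−0.69) and PRC1 (−0.62). Of 15 G1 and S transcripts 8 were lower and 2 higher, with a median of −0.22. CDC6 had −0.48, RRM2 −0.47 and MCM7 −0.40, and CCNE1 had 0.39. The 51 genes and the other G2 and M transcripts thus had medians of −0.55 and −0.48 at 48 h. Whether the G2 and M genes differ from the G1 and S genes was not tested.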

How the data were processed

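RNA of Hep3BTAp73β cells was hybridised to 14 Affymetrix U133 Plus 2.0 arrays. The authors deposited log2 values made by RMA, which subtracts background, equalises the distributions of the arrays and summarises probes, so levels are relative and compressed at the dim end. The submitters' processing notes name RMA and R 3.5.1, and the methods state that outlier arrays were left out of the analysis. The number of arrays limits the precision. The labels give DMEM as the medium and the methods RPMI. Groups came from the sample titles.

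Probe sets were named through the platform annotation. Of 54675 probe sets, 41091 named 1 gene and 1801 several. Each of 19775 genes was read by its probe set of highest mean over the 14 arrays. Dox+ and Dox− were compared at each time by moderated linear models in limma 3.58.1, run under R 4.3.3 (two-sided, Benjamini-Hochberg over all genes, threshold 0.05). Effects at 2 times were compared by an interaction contrast in 1 fit of 14 arrays, and a difference was named only where it also passed with array weights per time point. The pipeline was tested on simulated data. The genes, lists and rules were chosen with earlier results of these data known. Per-array values are given for the 12 genes with the most negative change among those lower at 48 h, for those higher at 48 h, for the 6 with the largest change at 24 h, and always for CENPA, NDC80, KNL1, BUB1, BUB1B, MAD2L1, TTK, AURKB and CENPJ. In each role the extremes at 48 h are named, and up to 4 genes of each related list. Promoter windows were RefSeq's. Alternatives covered the probe set choice, dim genes, normalization, test options, the replicate block and each array left out.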

Additional observations from a re-analysis of the deposited data

Results flagged for a closer look

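OIP5 differed between time points. Its log2 fold change at 48 h minus that at 12 h was −0.89 (SE 0.17, adjusted p = 0.0105 by limma's interaction contrast over all genes, and 0.0348 with array weights per time point). At 12 h the effect was 0.09 and the arms overlapped, and at 48 h it was −0.80 with all 3 Dox+ arrays below the 3 Dox− arrays. CENPW and SGO1 had similar differences between 48 h and 12 h, −0.80 and −0.86, which passed only without weights.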

How the results depend on the processing

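None of the 20 calls at 24 h and the 39 at 48 h changed its direction under the alternatives run, though single probe sets of BIRC5 passed in opposite directions at 24 h. At 12 h 1 gene was lower with all 14 arrays in 1 fit and 1 with the replicate block, and leaving out 1 array gave 0 to 2. At 24 h 31 were lower with limma's trend and robust options, 0 by an ordinary equal-variance test per gene, and 6 to 15 with 1 array left out (6 without the first Dox− replicate, 10 without the first Dox+ replicate). At 24 h 1 gene was higher with all 14 arrays in 1 fit, with the probe set of largest interquartile range and with the trend and robust options. At 48 h 25 were lower by the ordinary test and 35 to 36 with 1 array left out. The 1 higher gene at 48 h was 0 with all 14 arrays, the probe set of largest interquartile range, each probe set tested alone, the replicate block and the ordinary test, and 0 to 1 with 1 array left out (0 without replicate 1 or 3 of either arm). Effects more negative at 48 h than at 12 h numbered 10 without weights, 1 with weights, 4 after quantile normalization, 16 without dim genes, 2 with the probe set of largest interquartile range, 5 with each probe set tested alone, 6 with the replicate block, and 3 to 17 with 1 array left out (17 without the first Dox− replicate at 12 h, 3 without the second Dox+ replicate at 12 h or the third Dox− replicate at 48 h). Against 24 h the number was 1 with the probe set of largest interquartile range. The cause of these changes was not tested. Of the 20 genes lower at 24 h, 14 remained past the threshold after quantile normalization and 6 without the first Dox− replicate. CENPA and CENPH were each read by 1 probe set only, with a name that ends in _x_at. Neither had a value once such probe sets were left out, and the other 18 calls at 24 h and 37 at 48 h stayed.

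Same-numbered arrays deviated from their group means with correlations of 0.255 at 12 h, −0.110 at 24 h and 0.109, 0.0892 and 0.102 at 48 h, so the numbers were not taken to pair the arrays, although each 48 h array correlated best with its own number. With the replicate block all 20 genes lower at 24 h remained, and 38 of the 39 called at 48 h. Crossed numbers at 24 h, chosen after seeing the data, gave 26 lower and 0 higher.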
